A study of Mus musculus with 21 samples.

Results

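The heparan sulfate proteoglycans described here are the 4 syndecans (*Sdc1*, *Sdc2*, *Sdc3* and *Sdc4*), 5 glypicans (*Gpc1*, *Gpc2*, *Gpc3*, *Gpc4* and *Gpc6*) and perlecan (*Hspg2*). They were chosen by gene symbol and make up 10 of the 49652 genes counted in each tumor. All 10 had enough counts to be tested. Their level is given as CPM, the count of a gene relative to the total count of its tumor, scaled by TMM, which corrects for differences in library composition.

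Heparan sulfate proteoglycans carry long sulfated sugar chains on a core protein. The chains hold growth factors such as FGFs, Wnts and HB-EGF near the cell surface and in the matrix. Syndecans cross the cell membrane and are shed by metalloproteases, glypicans are tied to the outer membrane by a lipid anchor, and perlecan is secreted into basement membranes, where it joins laminin, nidogen and collagen IV. Mammary epithelium is known for its syndecan-1, and perlecan lies beneath the epithelium and around vessels.

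RNA from mammary tumors of 9 NeuNT controls (N) was compared with RNA of 12 RhoC cohort tumors (R) to ask which transcripts change when RhoC is overexpressed in tumors driven by activated Neu. All mice carried FloxNeoNeuNT, an activated *Neu* cDNA placed at the endogenous *Erbb2* locus behind a floxed stop, and MMTV-CreNLST, a Cre transgene for the mammary gland. According to the study, this Cre line appears to be active at a lower level, or in fewer epithelial cells, than other MMTV-Cre lines. The RhoC cohort was R26(RhoC/+);FloxNeoNeuNT;MMTV-CreNLST, in which Cre also switches on wildtype *RhoC* with eGFP from the Rosa26 locus. Of the controls, 7 were Gata4(loxP/+);FloxNeoNeuNT;MMTV-CreNLST, so that Cre removes 1 copy of *Gata4*, and 2 (N-15 and N-17) were FloxNeoNeuNT;MMTV-CreNLST. No RhoC tumor carried the *Gata4* loxP allele. The mice were virgin females followed to a humane endpoint, and the ages of single mice were not used here. Control tumors came from 9 mice and RhoC tumors from 8, with R-13, R-14, R-15 and R-16 from mouse P497 and R-6 and R-7 from mouse N9255, so these tumors are not independent. The label of R-18 names no mouse, and it was taken as a mouse of its own. The label of R-21 names a mouse that the tumor list of the study gives for another tumor of the same genotype, so which of these tumors R-21 is remains unsure, while its cohort does not depend on it. The tumor list of the study gives R-6, R-13 and R-14 as squamous cell carcinomas, N-1 as a spindle cell tumor and most others as adenocarcinomas or solid nodular carcinomas. Since the histology is not part of the sample labels, values by histology are given as descriptions without a test.

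Total counts per tumor were 47552423 to 100741339 in controls and 47309780 to 85326903 in RhoC tumors. *Rhoc*, which also counts reads of the transgene, was at up to 172 CPM in controls and at 22.8 to 148 CPM in RhoC tumors, so the cohorts overlapped (log2 fold change 0.19, edgeR adjusted p = 0.774). Luminal epithelial markers were present in all tumors, with 0 of 8 genes at 0 in any tumor and a summed level of 1149 to 6102 CPM. N-17 stood apart with skeletal muscle markers at a summed 4166 CPM (other controls 3.50 to 360 CPM) and the highest adipocyte and endothelial sums of the 21 tumors (364 and 784 CPM). In bulk tissue, fewer cells of a type and less RNA per cell cannot be told apart.

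RefSeq promoters on GRCm38.p6 were at hand for 7 of the 10 genes, all except *Sdc2*, *Gpc1* and *Gpc6*. Stretches of 4 of them are shown here, for the genes whose levels separated some tumors from the rest (*Hspg2*, *Sdc1*, *Gpc3*) and for the most abundant member (*Sdc4*). Each lies within the 250 bases before the RefSeq start, is limited to bases outside exons of the GENCODE annotation, and is written 5′ to 3′ on the strand of the gene. The stretch of *Sdc4* lies inside the annotated span of this gene (164424247 to 164443887), so it is not upstream of the whole gene. Capitals mark the GC box GGGCGG on either strand.
Hspg2 (chr4:137468553-137468768, plus strand): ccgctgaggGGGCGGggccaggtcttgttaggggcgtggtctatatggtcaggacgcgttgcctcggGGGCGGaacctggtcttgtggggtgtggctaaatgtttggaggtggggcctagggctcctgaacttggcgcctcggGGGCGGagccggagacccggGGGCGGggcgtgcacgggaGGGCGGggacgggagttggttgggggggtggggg
Sdc1 (chr12:8771182-8771322, plus strand): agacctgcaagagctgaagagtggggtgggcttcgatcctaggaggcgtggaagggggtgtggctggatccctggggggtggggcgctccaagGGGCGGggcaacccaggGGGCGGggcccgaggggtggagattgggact
Sdc4 (chr2:164443189-164443438, minus strand): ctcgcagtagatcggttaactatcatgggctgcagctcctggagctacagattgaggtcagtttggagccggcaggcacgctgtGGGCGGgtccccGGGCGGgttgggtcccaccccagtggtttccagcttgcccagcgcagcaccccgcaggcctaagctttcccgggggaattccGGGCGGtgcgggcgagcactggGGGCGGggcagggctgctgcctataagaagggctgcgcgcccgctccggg
Gpc3 (chrX:52613975-52614224, minus strand): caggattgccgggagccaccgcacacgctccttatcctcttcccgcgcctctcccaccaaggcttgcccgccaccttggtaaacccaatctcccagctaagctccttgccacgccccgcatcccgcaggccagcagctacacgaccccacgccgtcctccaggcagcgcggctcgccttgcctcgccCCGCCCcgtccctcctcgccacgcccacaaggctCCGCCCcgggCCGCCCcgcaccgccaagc
The GC box occurred in all 7 windows of 250 bases, as it did in 32.7% of 32851 mouse promoters of this length. The 7 windows had a GC content of 66.0% to 76.4%, against a median of 52.4% over all promoters. On both strands, the AP-1 motif TGANTCA was in 0 of the 7 (6.75% of all), the TATA box TATAAA in 0 (12.4% of all) and the TEAD motif GGAATG in 1, that of *Gpc4* (12.6% of all). No matches of different motifs overlapped. *Hspg2* held 5 GC boxes, *Sdc4* 4 and *Gpc4* 1.

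Per length, *Sdc4* and *Sdc1* were the most abundant members. On the FPKM scale of the authors, the level of *Sdc4* had a median of 170.3 over the 21 tumors (82.3 to 543), and *Sdc1* had a median of 139.9 (up to 1352). *Gpc4* followed at 51.7 FPKM, *Sdc2* at 25.8, *Hspg2* at 23.8, *Sdc3* at 21.1 and *Gpc1* at 16.3. At the low end were *Gpc6* (5.60 FPKM), *Gpc3* (2.51) and *Gpc2* (0.204), and the median of *Gpc2* lay above that of only 25.7% of the 23203 genes listed. Most neighbours in this order changed places in some tumors. *Gpc4* was above *Sdc2* in all 21 tumors and *Gpc3* above *Gpc2* in all 21, whereas *Sdc4* was above *Sdc1* in 15, *Sdc2* above *Hspg2* in 13 and *Gpc6* above *Gpc3* in 12.

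The make-up of each family differed between tumors. *Sdc4* was the leading syndecan in 14 tumors, 8 of 9 controls and 6 of 12 RhoC tumors, and took a median of 49.4% of the summed syndecan FPKM. *Sdc1* led in 6 tumors, the control N-1 and 5 RhoC tumors. In the 3 squamous cell carcinomas *Sdc1* took 67.7% to 89.2% of the sum and *Sdc4* 7.92% to 25.1%. *Sdc3* led only in R-10, at 42.6%. Among glypicans *Gpc4* led in 18 tumors with a median share of 66.4%. *Gpc1* led in R-6 (50.9%) and R-10 (47.2%), and *Gpc3* led only in N-3, at 52.7%. These shares were not tested.

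**Figure D1:**
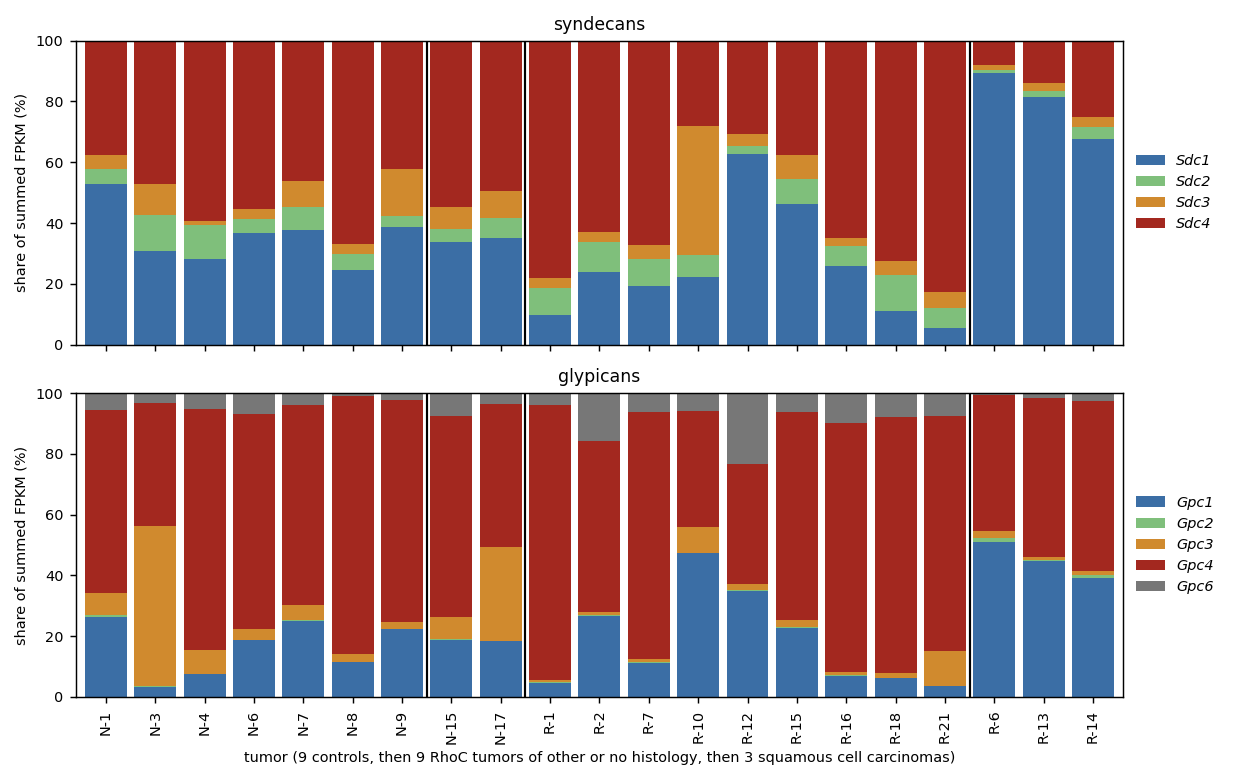
Share of the summed FPKM (percent, vertical axis) of 4 syndecans (top) and 5 glypicans (bottom) in each of the 21 tumors, in the order control with *Gata4* loxP, control without it, RhoC, and RhoC squamous cell carcinoma, with black lines between these groups. *Sdc4* fills the largest part of the syndecan bar in 14 tumors and *Sdc1* most of it in the 3 squamous cell carcinomas, where it reaches 89.2%.

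Between the cohorts, 0 of the 10 members had an adjusted p under 0.05 in edgeR's quasi-likelihood test, against 43 of the 19315 genes tested (0.223%, with 0.0932% higher and 0.129% lower). At an unadjusted p under 0.05 stood 5 members, *Gpc1*, *Gpc2*, *Gpc6* and *Hspg2* with a higher mean in RhoC tumors and *Gpc3* with a lower one, against 20.5% of all genes (10.5% higher and 9.93% lower). The number of members under this unadjusted threshold fell from 5 to 2 when each mouse gave 1 summed count (edgeR, 2462 of 19326 genes). It was also 2 in voom with mouse as a random effect (2513 of 19315 genes). Leaving out mouse P497 (2228 of 19184 genes) or the squamous cell carcinomas (2917 of 19046 genes) likewise gave 2 in edgeR. With all 21 tumors DESeq2 called 1 member, *Gpc3*, against 6.24% of all genes (3.66% higher and 2.59% lower). The log2 fold change of RhoC over control tumors was positive in 8 of the 10 members and in 49.6% of all genes. Its median was 0.22 over the syndecans and 0.83 over the glypicans, against -0.01 over all genes. The 21 tumors of each member are drawn in the plot of levels by cohort.

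**Figure D2:**
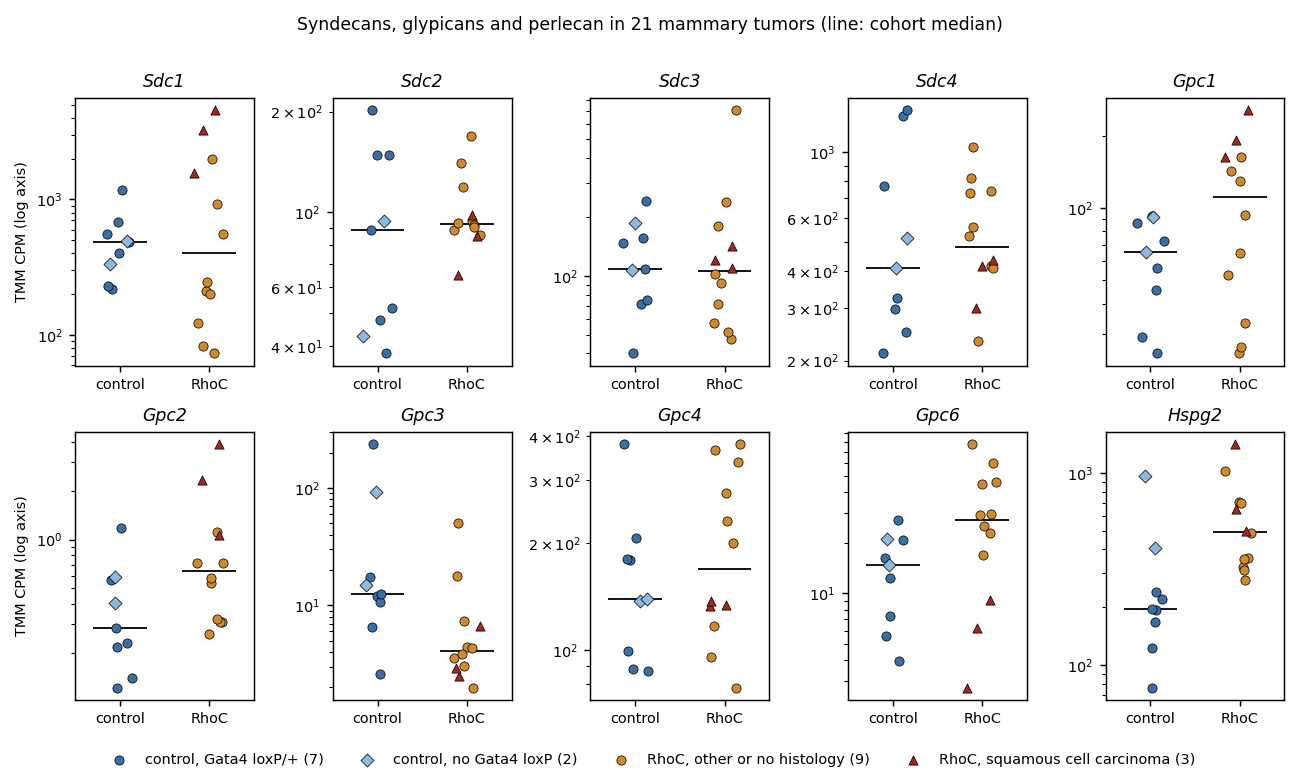
TMM CPM (vertical log axis) of each member in 9 control and 12 RhoC tumors, 1 point per tumor, with a line at the cohort median and symbols for the *Gata4* genotype of the control and for squamous cell carcinoma. For *Hspg2* all 12 RhoC tumors (277 to 1411 CPM) lie above the 7 controls with *Gata4* loxP (76.2 to 239 CPM), and the triangles of the 3 squamous cell carcinomas are among the 4 highest points for *Sdc1* and are the lowest RhoC points for *Gpc6*.

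*Sdc1* (chromosome 12, 8771323 to 8793715) codes for syndecan-1, the main epithelial syndecan, also known as a surface marker of plasma cells. Controls ranged from 218 CPM (N-3) over a median of 487 to 1173 CPM (N-6), and RhoC tumors from 73.3 CPM (R-21) over a median of 403 to 4547 CPM (R-6). RhoC tumors lay on both sides of the controls. R-6, R-13, R-12 and R-14 (1576 to 4547 CPM) were above all 9 controls, and R-21, R-18, R-1, R-7 and R-2 (73.3 to 212 CPM) were below all 9. The means were 508 ± 291 CPM (SD, n = 9) in controls and 1148 ± 1450 CPM (SD, n = 12) in RhoC tumors, a log2 fold change of 1.18 (standard error 0.68, edgeR adjusted p = 0.328). Without the 3 squamous cell carcinomas it was -0.050 (standard error 0.57, edgeR adjusted p = 0.978), and with mouse as a random effect in limma's voom it was -0.16 (adjusted p = 0.944).

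High *Sdc1* went with the squamous tumors. Of the 18 tumors not listed as squamous cell carcinoma, only R-12 was above the lowest of the 3, R-14 at 1576 CPM. Mouse N9255 bore 1 tumor of each kind, with *Sdc1* at 4547 CPM in R-6, the squamous cell carcinoma, and 201 CPM in R-7, a complex adenocarcinoma (22.6-fold). In mouse P497 the gap was smaller, with 3236 CPM in R-13 and 1576 CPM in R-14, both squamous, against 926 CPM in R-15 and 560 CPM in R-16 (5.78-fold from lowest to highest). Markers of squamous keratinocytes summed to 7775 CPM in R-6, 4055 in R-13, 2105 in R-14 and 1232 in R-12, against at most 1576 CPM in controls and 4.03 to 115 CPM in the other 8 RhoC tumors. Markers of basal epithelium summed to 5008 to 18519 CPM in these 4 tumors and to at most 3536 CPM in any other. Of the 8 squamous genes 5 had no count in at least 1 tumor, while all 6 basal genes were counted in every tumor. The level of N-1, with squamous markers at 1576 CPM, was 558 CPM for *Sdc1*, near the control median. Plasma cell markers summed to 13.5 to 75.4 CPM over the 21 tumors, below *Sdc1* in each, and were highest in R-6, the tumor with the highest *Sdc1*. Of these 8 plasma cell genes 4 had no count in at least 1 tumor. Across the 17 mice *Sdc1* had r = 0.587 with plasma cell markers (permutation p = 0.0127, adjusted 0.201 over 110 relations), 0.586 with squamous markers (permutation p = 0.0146, adjusted 0.201) and 0.563 with basal markers (permutation p = 0.0197, adjusted 0.240), and rho was 0.669, 0.596 and 0.490. Without the 2 mice farthest from the median of *Sdc1* the 3 values of r were 0.653, 0.424 and 0.421, within the control mice 0.417, -0.104 and -0.400, and within the RhoC mice 0.738, 0.845 and 0.946. The part of these cell types in the level of *Sdc1* was not tested.

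*Sdc2* (chromosome 15, 32920723 to 33034935), the syndecan of mesenchymal cells, had means of 95.8 ± 58.4 CPM (SD, n = 9) and 102 ± 28.3 CPM (SD, n = 12). It ranged from 37.9 to 202 CPM (median 88.8) in controls and from 65.2 to 170 CPM (median 92.4) in RhoC tumors, so all 12 RhoC tumors lay within the range of the controls. RhoC over control, the log2 fold change was 0.09 (standard error 0.27, edgeR adjusted p = 0.878) and changed sign in several alternatives.

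*Sdc3* (chromosome 4, 130792537 to 130826319), known best from nerve and muscle, stood out in 1 tumor. Controls were at 40.0 to 241 CPM (median 108) and RhoC tumors at 47.4 to 707 CPM (median 106), with R-10 the only RhoC tumor above the controls and the next at 240 CPM (R-15). For the cohorts the log2 fold change was 0.34 (standard error 0.44, edgeR adjusted p = 0.678), and without R-10 it was -0.19. R-10 also had a summed skeletal muscle level of 683 CPM, second of the 21 tumors after N-17, in which *Sdc3* was at 186 CPM, and the part of muscle in this value was not tested. Of the exonic bases of *Sdc3*, 6.93% lie under an antisense gene.

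*Sdc4* (chromosome 2, 164424247 to 164443887) codes for the syndecan of focal adhesions. It ranged from 211 CPM (N-7) to 1383 CPM (N-8) in controls, with a median of 408, and from 233 CPM (R-10) to 1041 CPM (R-16) in RhoC tumors, with a median of 479. N-8 and N-6 (1318 CPM) were above every RhoC tumor and N-7 was below every one, and the other 6 controls lay among them. The log2 fold change was -0.14 (standard error 0.35, edgeR adjusted p = 0.842) and 0.11 without N-8. In the squamous cell carcinomas *Sdc4* was at 301 to 436 CPM, inside the range of the other tumors.

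*Gpc1* (chromosome 1, 92831645 to 92860779) codes for a glypican of epithelium and nervous tissue. Controls ranged from 24.8 to 92.4 CPM with a median of 65.4, and RhoC tumors from 24.9 to 256 CPM with a median of 112. Of the RhoC tumors 7 lay above all controls and 5 lay among them. R-13, R-14 and R-15 of mouse P497 were among the 7. The means were 62.8 ± 25.8 and 112 ± 74.4 CPM, and the log2 fold change was 0.83 (standard error 0.40, edgeR adjusted p = 0.239). As for *Sdc1*, the squamous cell carcinomas were high, at 163, 192 and 256 CPM, and 1 of the other 18 tumors (R-10, 164 CPM) exceeded the lowest of them. Without the 3 the log2 fold change was 0.37 (adjusted p = 0.650). It was 0.57 (adjusted p = 0.549, edgeR) with counts summed per mouse and 0.68 (adjusted p = 0.546, edgeR) without mouse P497. With mouse as a random effect in voom it was 0.47 (adjusted p = 0.672). An antisense gene covers 18.9% of the exonic bases of *Gpc1*, and whether counting used the strand is not given in the sources used here.

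*Gpc2* (chromosome 5, 138273655 to 138280005), a glypican of the developing nervous system, was near the limit of detection with 9 to 194 reads per tumor. Its levels were 0.122 to 1.18 CPM (median 0.283) in controls and 0.261 to 3.89 CPM (median 0.645) in RhoC tumors. Only R-6 and R-14, both squamous cell carcinomas, exceeded the highest control, N-1. The log2 fold change of 1.29 (standard error 0.53, edgeR adjusted p = 0.185) was 0.39 without the squamous cell carcinomas. With counts summed per mouse it was 0.78 (adjusted p = 0.523, edgeR). A gene on the same strand shares 55.6% of its exonic bases, so its count is uncertain.

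*Gpc3* (chromosome X, 52272426 to 52613950) codes for an oncofetal glypican that restrains growth of the embryo. Controls ranged from 2.63 CPM (N-9) over a median of 12.6 to 237 CPM (N-3), and RhoC tumors from 1.99 CPM (R-2) over a median of 4.09 to 50.3 CPM (R-21). In 10 of the 12 RhoC tumors *Gpc3* was below the control median, and 8 of the 9 controls were above the RhoC median. The 3 highest tumors were N-3, N-17 (93.4 CPM) and R-21, and all others were at 17.7 CPM or less. The means were 45.2 ± 77.0 and 9.05 ± 13.6 CPM, a log2 fold change of -2.32 (standard error 0.76, edgeR adjusted p = 0.116). DESeq2 gave -1.83 (adjusted p = 0.0112) after it replaced outlying counts and -2.32 (adjusted p = 0.0221) without that step. Without N-3 the call was lost (DESeq2 -1.24, adjusted p = 0.239, and edgeR -1.23, adjusted p = 0.324). With only the *Gata4* loxP controls, N-3 among them, DESeq2 with outlying counts replaced gave -0.86 (adjusted p = 0.152) and edgeR -2.24 (adjusted p = 0.113). Leaving out N-17 gave -2.12 (adjusted p = 0.142) and leaving out R-21 gave -3.09 (adjusted p = 0.0636) in edgeR. The adjusted p was 0.370 with counts summed per mouse (-2.01, edgeR) and with mouse as a random effect (-1.63, voom), and 0.416 without mouse P497 (-1.98, edgeR).

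Across the 17 mice *Gpc3* had r = 0.632 with endothelial markers (permutation p = 0.00696, adjusted 0.201 over 110 relations, rho = 0.620) and 0.591 with macrophage markers (permutation p = 0.0129, adjusted 0.201, rho = 0.713). Without the 2 mice farthest from the median of *Gpc3*, r was 0.447 and 0.494. It was 0.775 and 0.716 within the control mice and 0.443 and 0.493 within the RhoC mice. Endothelial markers summed to 96.2 to 784 CPM in controls (median 215) and 138 to 488 CPM in RhoC tumors (median 224). Macrophage markers summed to 149 to 973 CPM (median 707) and 293 to 1096 CPM (median 512). In both lists 0 of 8 genes were called and all were counted in every tumor. The log2 fold change was positive in 0 of the 8 endothelial and 3 of the 8 macrophage genes (49.6% of all genes). N-17 and N-3 also had the highest skeletal muscle sums of the controls (4166 and 360 CPM). With this list *Gpc3* had r = 0.460 (permutation p = 0.0602, adjusted 0.325). Without the 2 farthest mice r was -0.062, and it was 0.710 within control mice and 0.014 within RhoC mice. Of the 6 muscle genes 4 had no count in at least 1 tumor, and 2 were tested. Of these 1 was called and 0 had a positive log2 fold change. The median muscle sum was 13.5 CPM in controls and 2.42 CPM in RhoC tumors. The part of these cell types in the level of *Gpc3* was not tested.

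*Gpc4* (chromosome X, 52053021 to 52165252), a glypican of epithelia, ranged from 87.3 to 380 CPM (median 139) in controls and from 78.3 to 380 CPM (median 169) in RhoC tumors. Only R-10, at 78.3 CPM, fell outside the range of the controls, and the other 11 RhoC tumors lay within it. This gave a log2 fold change of 0.32 (standard error 0.32, edgeR adjusted p = 0.585). The 3 squamous cell carcinomas lay close together at 133 to 138 CPM.

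*Gpc6* (chromosome 14, 116925430 to 117976544), a glypican of mesenchyme and growing cartilage, ranged from 3.95 to 27.5 CPM (median 14.7) in controls and from 2.75 to 77.5 CPM (median 27.2) in RhoC tumors. Of the RhoC tumors 6 were above all controls, with R-12 (77.5 CPM) and R-16 (59.5 CPM) the highest. The squamous cell carcinomas were the 3 lowest of the cohort at 2.75, 6.25 and 9.13 CPM, below the other 9 at 17.1 CPM or more. Within mouse N9255 *Gpc6* was 10.8-fold lower in R-6 than in R-7 (29.7 CPM), the opposite order to *Sdc1*. The part of squamous and basal cells in the levels of *Gpc1*, *Gpc2* and *Gpc6* was not tested. Over all tumors the log2 fold change was 1.10 (standard error 0.48, edgeR adjusted p = 0.204) and 1.44 (standard error 0.37, edgeR adjusted p = 0.127) without the squamous cell carcinomas. It was 1.25 (adjusted p = 0.236, edgeR) with counts summed per mouse and 1.05 (adjusted p = 0.453) with mouse as a random effect in voom.

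**Figure D3:**
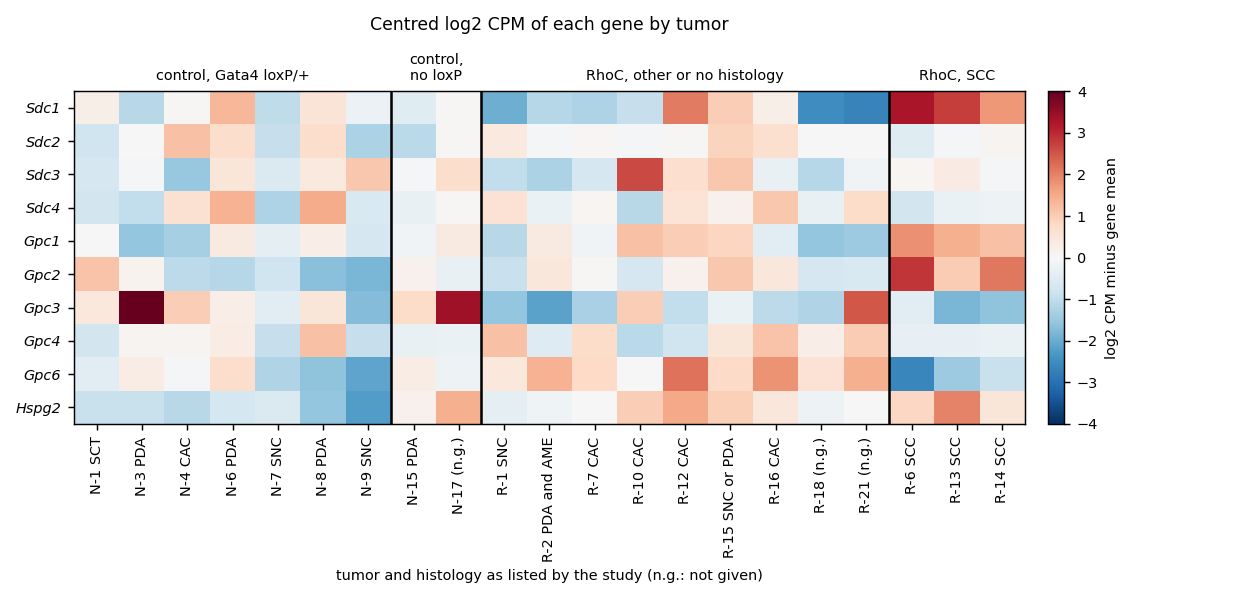
Log2 CPM of each member minus its mean over the 21 tumors (color scale in log2 units), with tumors in columns by cohort, *Gata4* genotype and histology (SCT spindle cell tumor, PDA poorly differentiated adenocarcinoma, CAC complex adenocarcinoma, SNC solid nodular carcinoma, AME adenomyoepithelioma, SCC squamous cell carcinoma). The 3 squamous cell carcinomas at the right are red for *Sdc1*, *Gpc1* and *Gpc2* and blue for *Gpc6*, and N-3 and N-17 are red for *Gpc3*.

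*Hspg2* (chromosome 4, 137468769 to 137570630) codes for perlecan, the large secreted proteoglycan of basement membranes. The 7 controls with *Gata4* loxP ranged from 76.2 CPM (N-9) over a median of 193 to 239 CPM (N-7), the other controls were at 408 CPM (N-15) and 959 CPM (N-17), and RhoC tumors ranged from 277 CPM (R-1) over a median of 494 to 1411 CPM (R-13). All 12 RhoC tumors were above the median of the 9 controls and above each control with *Gata4* loxP, while N-15 and N-17 lay among them. Over all 21 tumors the means were 287 ± 268 and 592 ± 339 CPM, a log2 fold change of 1.05 (standard error 0.40, edgeR adjusted p = 0.160). Both controls without *Gata4* loxP stood apart in other genes too, N-17 in the tissue markers given above and N-15 with *Erbb2* at 57.9 CPM (599.7 to 2725 CPM in the other 8 controls) and *Met* at 19168 CPM. Without N-15 the log2 fold change of *Hspg2* was 1.12 (adjusted p = 0.125). N-17 moved this value most, to 1.54 (adjusted p = 0.0509) without it. The part of the muscle, adipocyte and endothelial markers that were highest in N-17 was not tested.

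With only the 7 controls that carried *Gata4* loxP, the log2 fold change of *Hspg2* was 1.77 (standard error 0.34, edgeR adjusted p = 0.0253), and it was the only member called, where 2.22% of the 19699 genes tested were (1.03% higher and 1.2% lower). DESeq2 gave 1.77 (adjusted p = 3.17e-05), with 11.2% of genes called (6.38% higher and 4.79% lower). Of all genes 20 (0.102%) had every RhoC tumor above every one of these controls, and 17 (0.0863%) had every RhoC tumor below them. The call was lost when the tumors of a mouse were summed (1.59, adjusted p = 0.0984, edgeR), with mouse as a random effect (1.61, adjusted p = 0.0576, voom), without the squamous cell carcinomas (1.54, adjusted p = 0.0772, edgeR) and without mouse P497 (1.53, adjusted p = 0.150, edgeR). In this comparison the RhoC allele and the absence of *Gata4* loxP cannot be told apart. The plot of log2 fold changes shows this set beside all 21 tumors.

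**Figure D4:**
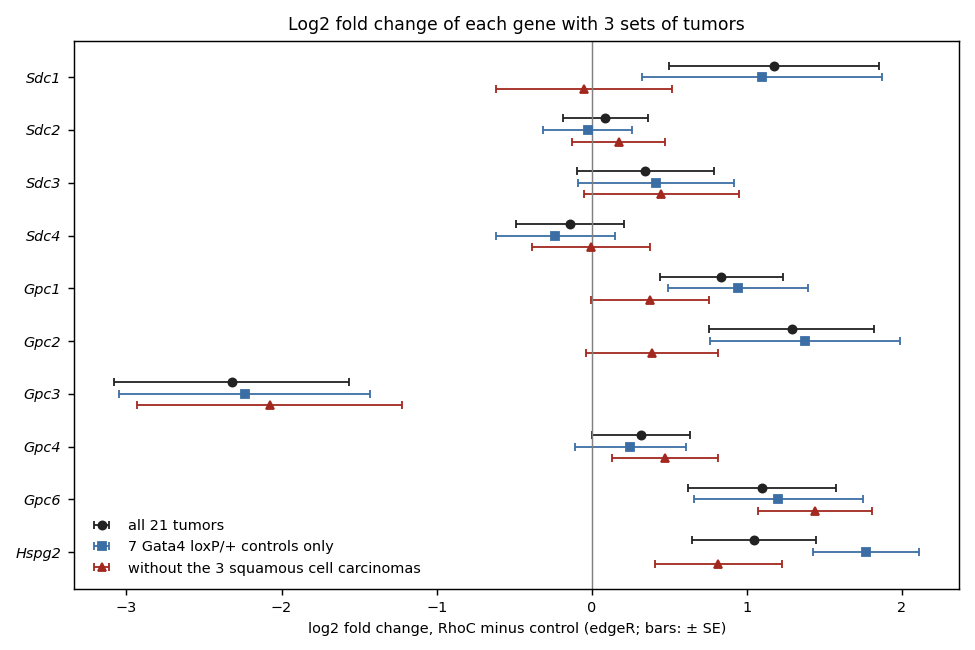
Log2 fold change of RhoC over control tumors (horizontal axis, edgeR, bars show ± SE) of each member with all 21 tumors, with only the 7 controls that carried *Gata4* loxP, and without the 3 squamous cell carcinomas. *Hspg2* moves from 1.05 to 1.77 with the 7 controls, and *Sdc1* moves from 1.18 to -0.050 without the squamous cell carcinomas.

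Levels of some members followed each other across the 17 mice, with tumors of 1 mouse averaged on the log2 scale. Of the 45 pairs 3 had a Benjamini-Hochberg adjusted p under 0.05 (Pearson's r, permutation test with 100000 resamples, two-sided). *Sdc2* and *Sdc4* had r = 0.709 (permutation p = 0.00137, adjusted 0.0307) and rho = 0.792 (permutation p = 2.1e-04, adjusted 0.00945). For *Sdc4* and *Gpc4* r was 0.696 (permutation p = 0.00205, adjusted 0.0307) and rho 0.740 (permutation p = 9.7e-04, adjusted 0.0218). For *Sdc1* and *Gpc1* r was 0.699 (permutation p = 0.00176, adjusted 0.0307) and rho 0.652 (permutation p = 0.0053, adjusted 0.0596).

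The 3 relations were positive in each cohort. Within the 9 control mice r was 0.778 for *Sdc2* and *Sdc4*, 0.812 for *Sdc4* and *Gpc4* and 0.619 for *Sdc1* and *Gpc1*, and within the 8 RhoC mice it was 0.517, 0.626 and 0.817. Without the 2 mice farthest from the median of the first gene, r was 0.729, 0.634 and 0.595. None of the 3 pairs had an adjusted p under 0.05 without mouse P497 (0.0675 for each), without N-17 (0.0504 for each, with r of 0.698 to 0.708) or with library size in place of TMM (0.126 for each). Without the squamous cell carcinomas *Sdc1* and *Gpc1* no longer passed (r = 0.638, permutation test, adjusted p = 0.0651). *Sdc2* and *Sdc4* (adjusted p = 0.0400) and *Sdc4* and *Gpc4* (adjusted p = 0.0466) still did.

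Across the same mice *Sdc4* followed *Rhoc* (r = 0.731, permutation p = 0.00116, adjusted 0.0232 over 20 relations of the members with *Rhoc* and *Erbb2*), with rho = 0.694 (permutation p = 0.00272, adjusted 0.0544). The value of r was 0.844 in control mice, 0.486 in RhoC mice, 0.736 without the 2 mice farthest from the median of *Rhoc*, and 0.736 without N-17 (permutation p = 0.00127, adjusted 0.0254). *Hspg2* followed the summed level of 8 fibroblast genes (r = 0.751, permutation p = 4.4e-04, adjusted 0.0484 over 110 relations of members with marker lists), with rho = 0.657 (permutation p = 0.00521, adjusted 0.191). Its r was 0.712 in control mice, 0.924 in RhoC mice and 0.581 without the 2 mice farthest from the median of *Hspg2*. Without N-17, which had the highest fibroblast sum of the controls, r was 0.723 and no longer passed (permutation p = 0.00153, adjusted 0.168). The fibroblast sum was 387 to 7446 CPM in controls and 1606 to 13189 CPM in RhoC tumors, with all 8 genes counted in every tumor and 0 called. Both families of relations were chosen after seeing the data. Unlike the pairs of members, neither was run without mouse P497 or with library size in place of TMM. The part of fibroblasts in the level of *Hspg2* was not tested.

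**Figure D5:**
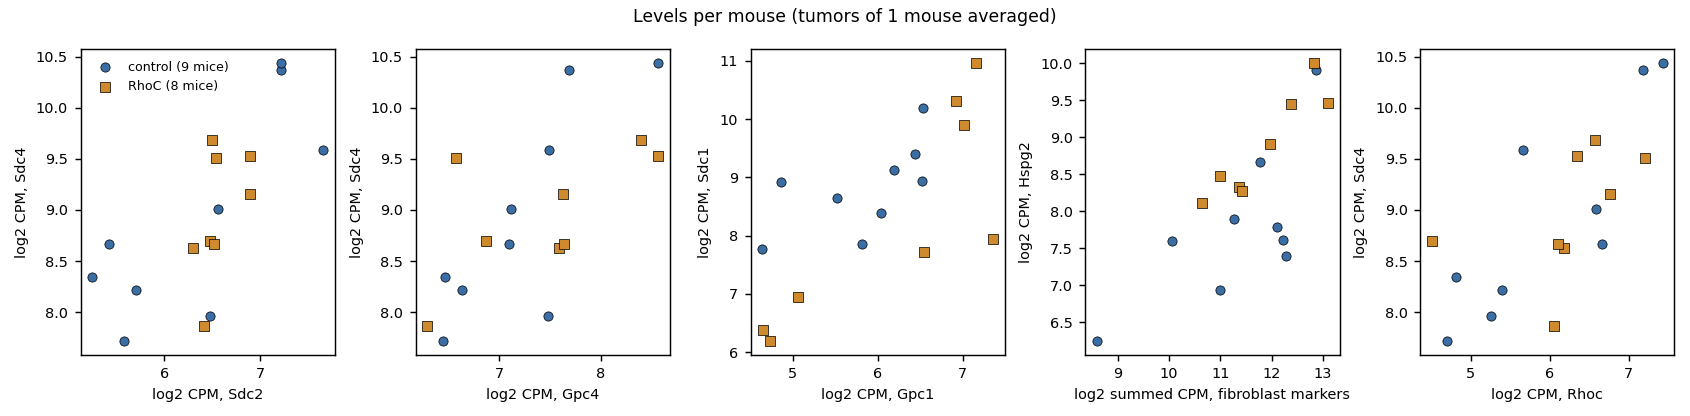
Log2 CPM per mouse (17 mice, circles for 9 control and squares for 8 RhoC mice, tumors of 1 mouse averaged) for the 3 related pairs of members, for *Hspg2* against the log2 summed CPM of fibroblast markers, and for *Sdc4* against *Rhoc*. Each panel slopes upward, with r between 0.696 and 0.751.

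Over the 21 tumors and 14516 genes with a mean log2 CPM over 0, genes among the 3 most like each member by Pearson's r of log2 CPM were as follows, as a description. *Sdc1* was most like *S100a6* (r = 0.933), *Actn1* (0.925), whose product binds actin, and *Prkx* (0.921). *Sdc2* was most like *Sspn* (0.842), *Mmgt2* and *Rab33b*, and *Sdc3* like *Mfsd2a* (0.757), *Cda* and *Tmem165*. For *Sdc4*, *Galnt2* (0.898) and *Slc50a1* (0.846) are given. Among glypicans, *Gpc1* was most like *Nbl1* (0.884), *Wnt11* (0.879) and *Tsku* (0.872), and *Gpc2* like *Mycl* (0.888), *Cd80* and *Grem1*. *Gpc3* had *Clec4a1* (0.812) and *Pirb*, both known from myeloid cells, and *Gm15922*. *Gpc4* had *Atp9a* (0.896), *Pik3ip1* and *Cd99l2*, and *Gpc6* had *Fbxl7* (0.820), *Slc35f1* and *Irak1bp1*. *Hspg2* was most like *Nos3* (0.898), the endothelial nitric oxide synthase, *Lrp1* (0.890) and *Igfbp7* (0.868).

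Enzymes that build, sulfate, trim or cleave the heparan sulfate chains on these core proteins were read from a list of 29 genes, of which 27 were tested. The list includes *Sulf1* and *Sulf2*, which remove sulfate, and the heparanase genes *Hpse* and *Hpse2*. Only *Hs3st3a1*, a 3-O-sulfotransferase that adds a late and rare modification to the chain, was called (against 0.0932% of all genes called higher). It was at 0.230 to 2.98 CPM (median 1.41) in controls and at 4.05 to 264 CPM (median 8.28) in RhoC tumors, so all 12 RhoC tumors lay above all 9 controls, as 3 of the 19315 genes (0.0155%) did in either direction. R-21 was far above the others at 264 CPM, followed by R-10 at 48.2 CPM. For *Hs3st3a1* the log2 fold change was 4.61 (standard error 0.89, edgeR adjusted p = 0.0304), and 3.38 (adjusted p = 0.0191) without R-21. With 1 tumor left out in turn it was called in 16 of 21 fits, with adjusted p values of 0.0506 to 0.0614 without N-1, N-4, N-7, N-8 or N-9, and the call was also lost with counts summed per mouse (4.96, adjusted p = 0.0563, edgeR), without mouse P497 (4.99, adjusted p = 0.0814, edgeR) and with mouse as a random effect (3.62, adjusted p = 0.174, voom). The part that codes for the enzyme is nearly identical in *Hs3st3b1*, and the study kept only reads that map to 1 place, so the level of either gene is uncertain. *Hs3st3b1*, named after its values were seen, had a log2 fold change of 1.93 (edgeR adjusted p = 0.140).

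Of the 27 enzymes 20 had a positive log2 fold change, as did 49.6% of all genes, with a median of 0.43 against -0.01 over all genes. At an unadjusted p under 0.05 stood 11, all with a higher mean in RhoC tumors, where 10.5% of all genes did so, and DESeq2 called 6, all higher, where it called 3.66% of all genes higher. With counts summed per mouse or with mouse as a random effect, 0 genes of any pathway list were called. Over all pathway lists 28 of 109 tested genes stood at an unadjusted p under 0.05 in edgeR. With counts summed per mouse it was 13 of 109, against 2462 of all 19326 genes tested. With mouse as a random effect in voom it was 13 of 109 (2513 of 19315), and without mouse P497 12 of 108 (2228 of 19184). The 27 enzymes were not counted apart in these fits. Only *Hs3st3a1* passed the adjusted threshold with edgeR. The genes with the smallest p after it, picked after their values were seen, were *B4galt7* (11.3 ± 2.27 and 18.8 ± 4.76 CPM, adjusted p = 0.0536) and *Extl3* (81.3 ± 16.8 and 119 ± 20.8 CPM, adjusted p = 0.0602, edgeR), which act in the linker and at the start of the chain.

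Of the other lists, edgeR called 0 genes in each. Over all genes, for comparison, 49.6% had a positive log2 fold change, 20.5% an unadjusted p under 0.05 (10.5% higher and 9.93% lower), and DESeq2 called 6.24% (3.66% higher and 2.59% lower). Among 16 basement membrane partners of perlecan 13 had a positive log2 fold change (median 0.46) and 4 an unadjusted p under 0.05, all higher, and DESeq2 called 3. The laminin chain *Lama3* was at 10.9 to 148 CPM in controls and 2.41 to 2476 CPM in RhoC tumors (log2 fold change 3.52, edgeR adjusted p = 0.118). Only R-6, R-12, R-13 and R-14, the 4 tumors with the highest basal marker sums, were above all controls (1295 to 2476 CPM), and the other 8 RhoC tumors were at 2.41 to 118 CPM. Of 16 syndecan partners and sheddases 8 were positive and 4 had an unadjusted p under 0.05, 3 of them higher, and DESeq2 called 1, both close to the shares over all genes. *Mmp9*, a matrix metalloprotease, was at 10.4 to 59.8 CPM in controls and 0.606 to 793 CPM in RhoC tumors (means 22.5 ± 16.1 and 136 ± 234, adjusted p = 0.140), with the same 4 tumors and R-10 above all controls. *Arf6*, a small GTPase of syndecan recycling, was at 77.7 to 266 and 146 to 426 CPM (0.49, adjusted p = 0.215).

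Of 9 genes of glypican release and trafficking 7 were positive (median 0.40), 1 had an unadjusted p under 0.05 and DESeq2 called 1. They were led by the endocytic receptor *Lrp1* (131 to 1037 and 276 to 3148 CPM, log2 fold change 1.37, adjusted p = 0.128, edgeR) and *Gdpd5*, a phosphodiesterase, at 22.6 to 91.3 and 36.0 to 128 CPM (0.58, adjusted p = 0.255). Among 21 tested FGFs, other heparin-binding ligands and receptors the median was 0.00, with 5 at an unadjusted p under 0.05, 3 of them higher, and DESeq2 called 1, again close to the shares over all genes. *Tgfb1*, a growth factor, was at 30.7 to 106 CPM in controls and 50.6 to 246 CPM in RhoC tumors (1.04, adjusted p = 0.0821). *Met*, the HGF receptor, reached 19168 CPM in N-15 and at most 255 CPM in any other control, so its log2 fold change of -3.06 (adjusted p = 0.113) came with 34.8 to 941 CPM in RhoC tumors. DESeq2, which replaces outlying counts, gave *Met* 0.33 (adjusted p = 0.647), the opposite direction. Among 11 tested genes of Wnt and Hedgehog output 3 were positive (median -0.31) and 0 had an unadjusted p under 0.05, while DESeq2 called 1. Here *Gli1* (0.0347 to 4.59 and 0.0840 to 0.872 CPM, -1.30, adjusted p = 0.275) and *Axin2* (1.79 to 148 and 0.706 to 50.5 CPM, -1.33, adjusted p = 0.360) had the smallest p. For *Gli1* the median was higher in RhoC tumors (0.404 against 0.274 CPM), with N-1 (4.59 CPM) and N-6 (2.21 CPM) far above the other controls. Of 10 tested other proteoglycans and binding partners 6 were positive (median 0.43), 3 had an unadjusted p under 0.05, 2 of them higher, and DESeq2 called 0. They were led by *Cspg4*, the pericyte proteoglycan (7.34 to 53.5 and 14.9 to 101 CPM, 0.98, adjusted p = 0.160), and *Col18a1*, a heparan sulfate collagen of basement membranes (83.4 to 764 and 37.5 to 2531 CPM, 1.72, adjusted p = 0.169).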

How the data were processed

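Total RNA was depleted of ribosomal RNA and made into stranded libraries from 21 mammary tumors. According to the processing notes of the submitters, reads were checked with FastQC 0.11.5, trimmed with Trim Galore 0.5.0, aligned with STAR 2.6.0c to GRCm38.p6 and counted with HTSeq 0.6.1p2, with only uniquely mapping reads kept. The strand setting of counting is not given in the sources used here. The deposited counts are whole reads per gene and are not normalized. The deposited FPKM values of the authors, which are scaled by depth and gene length, served only to compare levels between genes, and the fold changes and p-values that the deposited tables hold for their own comparison were not used.

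Of 49652 genes, 38730 had a count and 19315 passed edgeR's filterByExpr. Counts were scaled by TMM and tested with the quasi-likelihood test of edgeR 4.0.16 in R 4.3.3, with both control genotypes pooled, no covariate and a Benjamini-Hochberg adjusted p under 0.05 over all tested genes. DESeq2 1.42.0 and voom of limma 3.58.1 were alternatives. Log2 CPM used a prior count of 2. Totals of 47309780 to 100741339 counts per tumor set the precision. Whether tumors of different mice shared a litter or a day is not known, so p-values measure the spread between these tumors. Correlations used mean log2 CPM of 17 mice and 100000 permutations with SciPy 1.17.1. The fits were tested on simulated counts.

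Besides the 10 members, the text names from each pathway list the genes past the threshold (at most 4) or else the 2 with the smallest p, the 3 genes most like each member, and *Rhoc*. *B4galt7*, *Extl3* and *Hs3st3b1* fall outside this rule. Some genes that the rule names are not reported here. The members and lists were chosen with earlier results of these data known. Added after seeing the data were relations of members with marker lists, *Rhoc* and *Erbb2*, the fits of the 8 tumors without the block, DESeq2 without outlier replacement or without N-3, pairs without squamous cell carcinomas, relations without N-17, and all fits that combine the *Gata4* loxP controls with another change. Other alternatives left out each tumor, mouse P497, N-1 or the squamous cell carcinomas, summed counts per mouse, or changed the scaling, the filter or the controls.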

Additional observations from a re-analysis of the deposited data

How the results depend on the processing

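edgeR called 43 genes, 0 members and 1 pathway gene. Over all genes the count was 27 with library size in place of TMM (which moved the median log2 fold change to -0.03), 1206 with DESeq2 (1349 without replacement of outlying counts, 878 without N-3), 3 with counts summed per mouse, 3 with voom and mouse as a random effect, 26 without the squamous cell carcinomas, 3 without P497 and 19 without N-1. With only the *Gata4* loxP controls it was 438, and then 2199 with DESeq2, 9 per mouse, 17 with voom, 14 without the squamous cell carcinomas and 6 without P497. Leaving out 1 tumor gave 14 (without N-9) to 346 (without N-15) genes, 0 members and 0 to 3 pathway genes. Members called were 1 with DESeq2 with or without replacement (*Gpc3*), and 1 with the *Gata4* loxP controls by edgeR or DESeq2 (*Hspg2*), and 0 otherwise. Pathway genes called were 13 with DESeq2 with or without replacement, 9 without N-3, 4 with the *Gata4* loxP controls (19 by DESeq2) and 0 per mouse, with voom, without P497, without N-1 and in the loxP sets per mouse, with voom, without squamous cell carcinomas and without P497. Tumors share numbers between cohorts, but same-numbered tumors did not deviate together (correlations -0.51, -0.31, -0.12 and 0.03), so the numbers pair nothing. A fit with replicate block on these 8 tumors called 0 genes, as did the same tumors without it, and 0 pathway genes in both. Of 45 pairs 3 passed, against 8 over 21 tumors, 2 without squamous cell carcinomas, 0 with library size, 0 without P497 and 0 without N-17. The log2 fold change changed sign for *Sdc1* with voom (-0.16, -0.18 with the loxP controls) and without squamous cell carcinomas (-0.050, -0.12 with the loxP controls). For *Sdc2* it did so with the loxP controls (-0.026 by edgeR, -0.030 by DESeq2, -0.11 per mouse), without P497 (-0.074, -0.19 with the loxP controls) and with 1 tumor left out (-0.019 to 0.30). For *Sdc4* it did so with voom (0.047, 0.026 with the loxP controls), with the block (0.30) and with 1 tumor left out (-0.26 to 0.11), and for *Sdc3* only without R-10 (-0.19 to 0.50). The causes were not tested. *Gpc2* rests on the fewest reads (9 to 194 per tumor).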
